A study of Mus musculus with 2 samples.

Results

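The genes described here are 8 that mark inhibition and dysfunction of lymphocytes: Pdcd1, Ctla4, Lag3, Havcr2, Tigit, Cd160, Tox and Entpd1. They were a fixed list of symbols, chosen by name from the 32285 gene rows, and each symbol matched 1 row. Cells came from CT26 tumours, a mouse colon carcinoma line that grows as a transplant in BALB/c mice. In the PTIR1 group the tumours expressed PTIR1, which the series title calls an immunoproteasome suppressor, and in the mock group they carried the mock genotype. Both groups shared the host strain, the tumour line and a droplet-based 3' assay, which tags captured transcripts with unique molecular identifiers (UMIs), so that each counts once whatever its length. Each group was 1 library, so no difference was tested. All intervals are at 95% and express the error of counting alone, not that between animals. The number of mice behind a library, their age, the time of collection and any sorting of the cells were not given in the sources used here.

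These genes encode brakes on lymphocytes and their companions. PD-1 (Pdcd1), CTLA-4 (Ctla4), LAG-3 (Lag3), TIM-3 (Havcr2), TIGIT (Tigit) and CD160 (Cd160) are surface receptors that dampen activation when they meet ligands on tumour cells, myeloid cells or other antigen-presenting cells. T cells that meet antigen for a long time in a tumour come to carry several of them at once, a state known as exhaustion, which the nuclear factor TOX (Tox) helps to establish. CD39 (Entpd1) is an enzyme on the cell surface that breaks down extracellular ATP. Several of the genes are also used outside exhausted T cells, CTLA-4 by regulatory T cells, LAG-3 by plasmacytoid dendritic cells, and TIM-3 and CD39 by myeloid cells.

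In mm10, by the GENCODE vM21 annotation, all 8 are protein-coding genes. Pdcd1 lies at chr1:94038305-94052553 on the minus strand, Ctla4 at chr1:60887000-60915832 (plus), Lag3 at chr6:124904361-124911705 (minus) and Havcr2 at chr11:46454935-46481255 (plus). Tigit lies at chr16:43648867-43664146 (minus), Cd160 at chr3:96798763-96829351 (minus), Tox at chr4:6686353-6991557 (minus) and Entpd1 at chr19:40612366-40741602 (plus). The RefSeq promoter table (GRCm38.p6) held windows for 6 of the 8 genes. The 250 bases upstream of the start are shown for Pdcd1 and Ctla4, receptors that differed between the libraries in CD8 T cells (Pdcd1) and in NK cells (Ctla4), and the capitals mark GGAAA on either strand, the core that NFAT, a factor activated by antigen receptor signals, binds. The start is that of RefSeq. For Pdcd1 it is also the 5′ end of the span given above, and for Ctla4 it lies inside that span, downstream of its 5′ end.

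Pdcd1, chr1:94052554-94052803, minus strand: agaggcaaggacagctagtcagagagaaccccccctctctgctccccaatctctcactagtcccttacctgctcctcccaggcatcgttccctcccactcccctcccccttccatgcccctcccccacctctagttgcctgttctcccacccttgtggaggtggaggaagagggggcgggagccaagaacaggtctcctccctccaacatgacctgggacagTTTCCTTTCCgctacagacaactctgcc

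Ctla4, chr1:60908775-60909024, plus strand: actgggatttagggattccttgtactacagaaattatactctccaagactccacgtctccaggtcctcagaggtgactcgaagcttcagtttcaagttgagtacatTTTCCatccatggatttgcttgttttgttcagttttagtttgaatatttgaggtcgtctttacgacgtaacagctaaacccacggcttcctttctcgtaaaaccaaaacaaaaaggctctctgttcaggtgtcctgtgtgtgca

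The Pdcd1 window held 2 adjacent matches, 28 and 23 bases upstream of the start, and the Ctla4 window held 1, at 144 bases. Of 32851 upstream windows of the same length in the table, 55.6% held at least 1 such match, so the match itself does not set these windows apart. Neither window held TGANTCA, the AP-1 motif (6.75% of windows on either strand), nor TGTGGT, a core bound by RUNX factors (14.0% of windows on either strand).

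The PTIR1 library held 9006 barcodes and 98540561 UMIs, and the mock library 10833 barcodes and 95166611 UMIs, with 30 barcodes present in both. After filtering, 7567 PTIR1 cells with a median of 7016 UMIs and 9328 mock cells with a median of 2947.5 UMIs were kept. Cells were gated on transcripts, T cells by at least 2 UMIs of Cd3d, Cd3e and Cd3g, and NK cells by at least 2 UMIs of Ncr1 and Klrb1c. CD8 T cells were the T cells with more Cd8a and Cd8b1 than Cd4 UMIs. The CD8 T gate held 61 PTIR1 cells, 0.806% of kept cells (0.617 to 1.03%), and 240 mock cells, 2.57% (2.26 to 2.91%). The other T gate held 191 PTIR1 and 314 mock cells, the NK gate 702 PTIR1 and 572 mock cells, and the non-lymphoid gate 941 PTIR1 and 814 mock cells. Median depth was 15581 UMIs in PTIR1 and 15456 in mock CD8 T cells, 10730 and 5483 UMIs in PTIR1 and mock other T cells, and 12652.5 and 9904 UMIs in PTIR1 and mock NK cells.

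The lymphoid gates carried their lineage markers and also RNA of macrophages. Trac, which encodes the T cell receptor alpha chain, stood at 294.5 CPM (UMIs per 1000000 UMIs of the gate) in PTIR1 and 401 CPM in mock CD8 T cells, and at 6.21 and 5.91 CPM in PTIR1 and mock NK cells. Gzma, a granzyme of NK cells, stood at 5313 CPM in PTIR1 and 5512 CPM in mock NK cells. It also reached 104 CPM in PTIR1 and 74.4 CPM in mock B cells. All 5 macrophage markers checked (Lyz2, Cd68, Fcgr1, Mrc1, Ctss) were detected in each lymphoid gate of each library. Their summed level was 10522 CPM in PTIR1 and 8458 CPM in mock CD8 T cells, 9708 and 11191 CPM in PTIR1 and mock other T cells, 5486 and 5438 CPM in PTIR1 and mock NK cells, and 18291 and 21772 CPM in PTIR1 and mock cells of a wide myeloid gate. These markers took more than 0.3% of the UMIs in 62.3% of PTIR1 and 45.8% of mock CD8 T cells, in 47.6% of PTIR1 and 59.2% of mock other T cells, and in 31.6% of PTIR1 and 28.7% of mock NK cells. Many results are therefore also given for the cells under this limit, called low-macrophage cells, a setting chosen after seeing the data. It left 23 PTIR1 and 130 mock CD8 T cells, 100 PTIR1 and 128 mock other T cells, and 480 PTIR1 and 408 mock NK cells.

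The 8 genes fell into different gates. Pdcd1 was highest in CD8 T cells, which held 32.1% of its UMIs of kept cells in the PTIR1 and 70.6% in the mock library, with 98.4 CPM (82.6 to 116) in PTIR1 and 179 CPM (167 to 192) in mock CD8 T cells. It was lower in Foxp3+ T cells of the other T gate, with 30.9 CPM in PTIR1 and 58.9 CPM in mock cells, and lower again in the rest of that gate, with 28 UMIs in PTIR1 and 39 UMIs in mock cells. NK cells were close to the floor, with 11 Pdcd1 UMIs in each library, 0.924 CPM in PTIR1 and 1.35 CPM in mock cells. B cells, which served as a level that RNA outside cells may reach, had 0.509 CPM in PTIR1 and 1.15 CPM in mock cells, and the intervals of NK and B cells overlapped in both libraries. Tox was also highest in CD8 T cells, with 97.7 and 166 CPM in PTIR1 and mock cells, and stood at 59.7 and 83.3 CPM in PTIR1 and mock Foxp3+ cells. The rest of the other T gate, at 11.2 and 18.5 CPM in PTIR1 and mock cells, and NK cells, at 10.8 and 19.6 CPM in PTIR1 and mock cells, had Tox levels whose intervals overlapped in both libraries.

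Ctla4 was highest in regulatory T cells. Foxp3+ cells, which carry the factor that defines regulatory T cells, had 295 CPM (262 to 332) in the PTIR1 and 376 CPM (332 to 425) in the mock library. At full depth, 93.5% of 46 PTIR1 and 76.4% of 55 mock Foxp3+ cells had a UMI. Their median depths were 15165.5 UMIs in PTIR1 and 8372 UMIs in mock cells, and the part of depth in these shares was not tested. CD8 T cells had 75.4 CPM in PTIR1 and 78.7 CPM in mock cells, the rest of the other T gate 65.9 and 30.3 CPM in PTIR1 and mock cells, and NK cells 37.9 CPM in PTIR1 and 24.0 CPM in mock cells, while B cells had 2.88 and 2.67 CPM in PTIR1 and mock cells. Tigit, a receptor for the nectin family member PVR, was scarce, with 84 UMIs in the whole PTIR1 and 82 in the whole mock library. Its levels in CD8 T cells, at 3.59 CPM in PTIR1 and 4.96 CPM in mock cells, and in NK cells, at 2.86 and 3.2 CPM in PTIR1 and mock cells, did not differ beyond counting error.

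Cd160, a receptor for HVEM, was shared by NK and CD8 T cells and not detected in Foxp3+ cells. It stood at 33.3 CPM in PTIR1 and 49.9 CPM in mock NK cells, and at 45.3 and 44.0 CPM in PTIR1 and mock CD8 T cells. Foxp3+ cells had 0 UMIs in 46 PTIR1 and 55 mock cells, and a count of 0 allows up to 3.2 CPM in PTIR1 and 4.31 CPM in mock cells. The NK gate held 55.5% of all Cd160 UMIs of kept cells in the PTIR1 and 44.2% in the mock library.

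Lag3 was shared between lymphocytes and plasmacytoid dendritic cells, which make type I interferon. CD8 T cells had 96.3 CPM in PTIR1 and 120 CPM in mock cells. The plasmacytoid dendritic gate, with 101 PTIR1 and 89 mock cells, had 75.0 CPM (61.0 to 91.2) in PTIR1 and 89.2 CPM (71.6 to 110) in mock cells, so that its level overlapped that of CD8 T cells in the PTIR1 library. NK cells had 19.5 and 27.2 CPM in PTIR1 and mock cells. The wide myeloid gate had 0.829 CPM in PTIR1 and 1.73 CPM in mock cells, and B cells 2.54 and 1.15 CPM in PTIR1 and mock cells.

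Havcr2 and Entpd1 were mainly myeloid by where their UMIs lay. The wide myeloid gate was defined after seeing the data. Its cells had more than 0.3% macrophage marker UMIs, no CD3 or NK UMIs and fewer than 2 B cell UMIs. This gate held 55.7% of Havcr2 UMIs in the PTIR1 and 55.2% in the mock library, and 46.6% and 54.0% of Entpd1 UMIs in the PTIR1 and mock libraries. Havcr2 stood at 52.8 CPM in PTIR1 and 52.0 CPM in mock myeloid cells, against 81.2 and 72.7 CPM in PTIR1 and mock CD8 T cells. Entpd1 was highest in neutrophils, with 312 CPM (263 to 367) in 125 PTIR1 cells and 458 CPM (384 to 542) in 80 mock cells, above 77.6 and 73.5 CPM in PTIR1 and mock CD8 T cells.

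**Figure D1:**
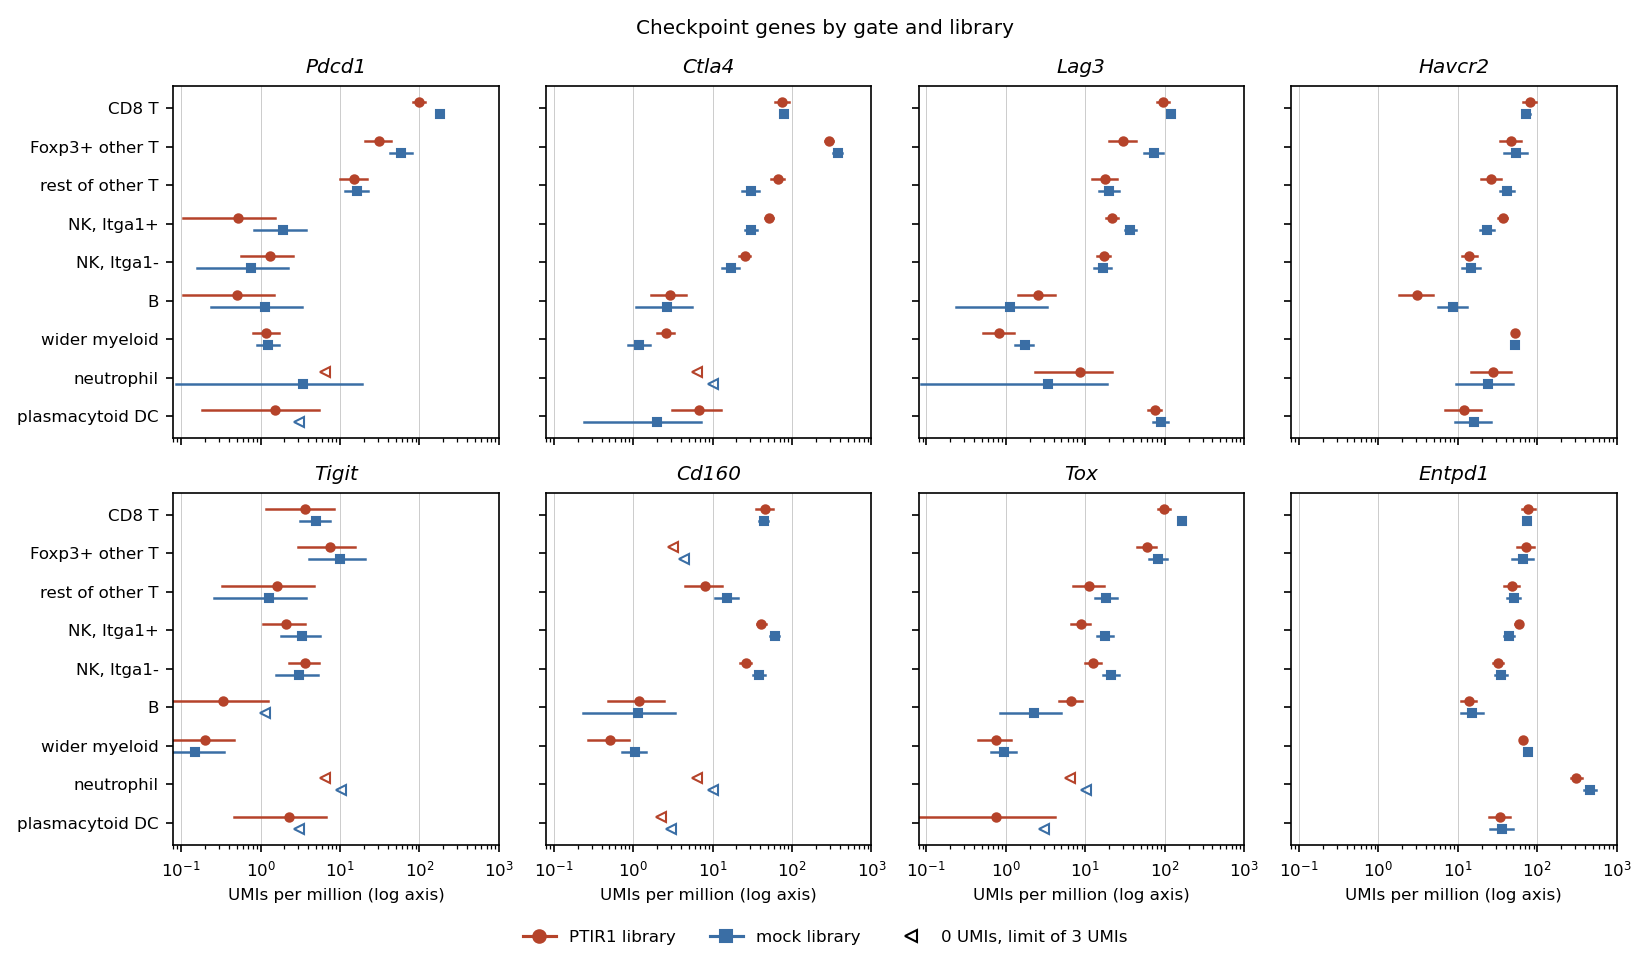
Level of each gene in CPM (log axis that does not start at 0) in 9 gates, PTIR1 above mock, with exact 95% Poisson intervals; open triangles mark 0 UMIs at the limit that 3 UMIs would give. Pdcd1 and Tox are highest in CD8 T cells, Ctla4 in Foxp3+ cells and Entpd1 in neutrophils, where it reaches 312 CPM in the PTIR1 and 458 CPM in the mock library.

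In CD8 T cells, Pdcd1 and Tox were lower in the PTIR1 library, while the other 6 genes differed by less than 1.5-fold. Pdcd1 had 137 UMIs in 61 PTIR1 cells and 831 UMIs in 240 mock cells, a CPM ratio of PTIR1 over mock of 0.549 (exact conditional binomial interval 0.455 to 0.659). Tox had 136 UMIs in PTIR1 and 768 in mock cells, a ratio of 0.590 (0.488 to 0.709). These 2 of the 8 genes were past 1.5-fold lower, as were 13.8% of the 10308 genes with at least 20 UMIs in this gate. None of the 8 was past 1.5-fold higher, against 7.08% of all genes. None was past 2-fold either way, against 5.87% of all genes lower and 2.05% higher. On the log2 scale the middle of the 8 ratios lay at -0.19, where the middle of all genes lay at -0.03.

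The lower Pdcd1 level in the PTIR1 library was seen in the share of cells and in the number of UMIs per cell. A Pdcd1 UMI was found in 60.7% (47.3 to 72.9%) of PTIR1 and 72.5% (66.4 to 78.0%) of mock CD8 T cells, against 0.347% and 0.668% of PTIR1 and mock B cells, whose median depths were 4575.5 and 4308 UMIs. At least 5 Pdcd1 UMIs were found in 19.7% (10.6 to 31.8%) of PTIR1 and 32.9% (27.0 to 39.3%) of mock CD8 T cells. For Tox, 11.5% (4.74 to 22.2%) of PTIR1 and 29.6% (23.9 to 35.8%) of mock cells had at least 5 UMIs. The intervals of the share did not overlap for Tox, and did for Pdcd1.

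Both ratios were about as low in low-macrophage CD8 T cells. Pdcd1 then stood at 157 CPM in PTIR1 and 294 CPM in mock cells, a ratio of 0.534 (0.380 to 0.733), and Tox at 157 and 264 CPM in PTIR1 and mock cells, a ratio of 0.593 (0.421 to 0.815). In these cells Pdcd1, Tox and Entpd1 were past 1.5-fold lower, against 21.6% of 7671 genes, and Ctla4 and Havcr2 past 1.5-fold higher, against 12% of genes. In the other cells of the gate, 38 PTIR1 and 110 mock cells over the limit, the Pdcd1 ratio was 0.715 (0.564 to 0.898) and that of Tox 0.740 (0.583 to 0.932). No member was past 1.5-fold there, against 12.7% of 9501 genes lower and 7.26% higher. Counted per UMI of 6 T cell markers in place of all UMIs, Pdcd1 had 42.1 UMIs per 1000 marker UMIs in PTIR1 and 73.5 in mock cells, a ratio of 0.573 (0.475 to 0.688).

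The size of the Pdcd1 difference depended on the depth of the cells compared. From 5000 UMIs per cell upward the level fell with depth in both libraries, and the share of cells over the macrophage limit was 27.3% of PTIR1 and 2.44% of mock cells in the range of 5000 to 10000 UMIs and 90% of PTIR1 and 88.9% of mock cells in the deepest range. The part of this RNA in the fall of the level was not tested. In cells of 5000 to 10000 UMIs, Pdcd1 stood at 311 CPM (199 to 463) in 11 PTIR1 cells and 317 CPM (258 to 386) in 41 mock cells, with no difference beyond counting error. In cells of 10000 to 20000 UMIs it stood at 183 CPM in 13 PTIR1 and 268 CPM in 72 mock cells, and in cells of 20000 to 40000 UMIs at 85.1 CPM in 17 PTIR1 and 166 CPM in 74 mock cells. The PTIR1 library had 137 Pdcd1 UMIs where the mock levels of the same 5 depth ranges would have given 213, a ratio of 0.642. The same count for Tox was 136 UMIs against 200.4 expected from the mock library, a ratio of 0.679, and Tox was lower in the PTIR1 library in each of the 5 ranges. With each cell thinned to 5000 UMIs, which gave every cell the same weight and left out shallower ones, the Pdcd1 log2 ratio was -0.28 (-0.77 to 0.19), and its interval then included 0.

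**Figure D2:**
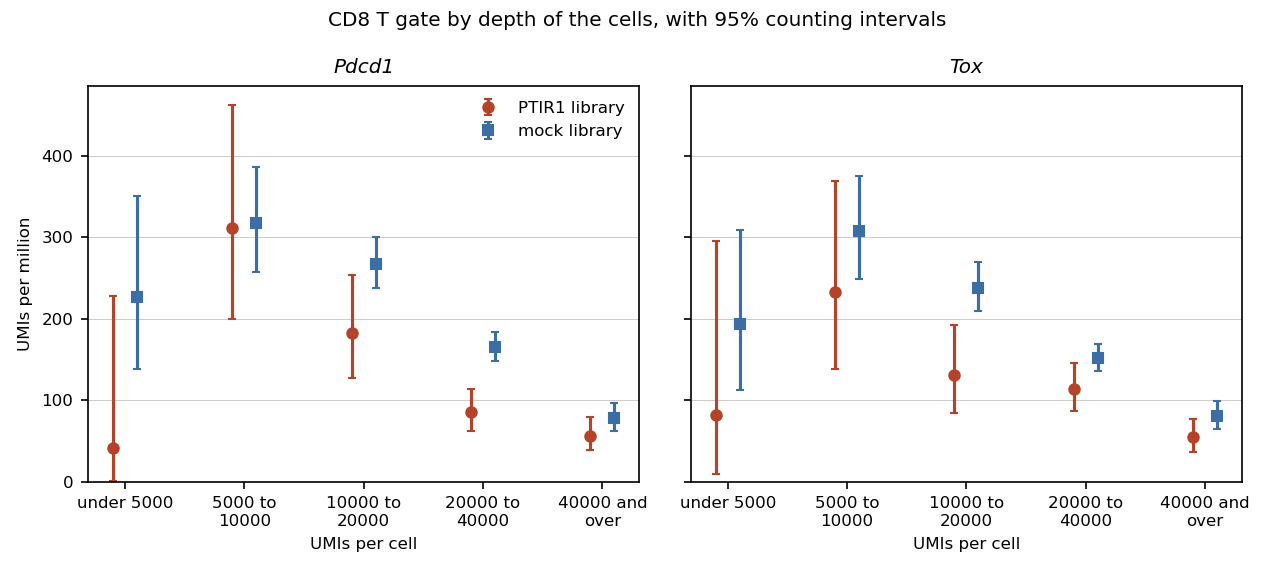
Pdcd1 and Tox in CD8 T gate cells, in CPM, by range of UMIs per cell, with exact 95% Poisson intervals. Mock points lie above PTIR1 points in each range for Tox, and the Pdcd1 points are level at 5000 to 10000 UMIs, with 311 CPM in PTIR1 and 317 CPM in mock cells.

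Lag3, which binds MHC class II, had 134 UMIs in PTIR1 and 557 in mock CD8 T cells, a ratio of 0.802 (0.659 to 0.970). In low-macrophage cells it stood at 0.948 (0.682 to 1.29), with an interval that included 1. Ctla4 had a ratio of 0.958 (0.764 to 1.19), Havcr2 of 1.12 (0.895 to 1.39), Cd160 of 1.03 (0.763 to 1.37) and Entpd1 of 1.06 (0.842 to 1.31). These 4 intervals all included 1, and they reach down to a ratio of 0.763 and up to 1.39. The Entpd1 ratio was 0.610 (0.325 to 1.06) in low-macrophage cells. In low-macrophage cells Ctla4 was 1.56-fold higher in the PTIR1 library (1.11 to 2.14) and Havcr2 1.54-fold higher (1.06 to 2.21). There, 1 PTIR1 cell held 19 of the 49 Ctla4 UMIs, 38.8%. Tigit had 5 UMIs in PTIR1 and 23 in mock CD8 T cells, and its ratio, 0.724, could lie anywhere from 0.215 to 1.95.

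**Figure D3:**
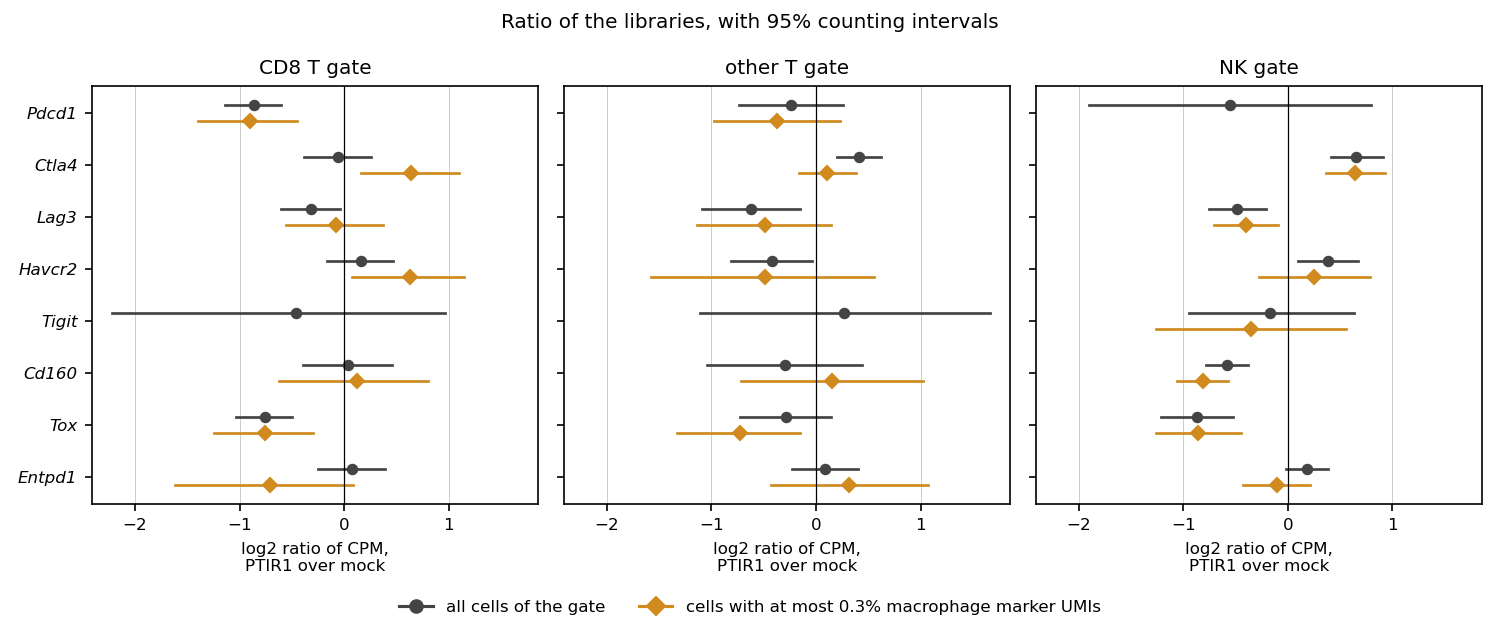
Log2 ratio of CPM, PTIR1 over mock, for each gene in the CD8 T, other T and NK gates, with 95% counting intervals, over all cells of a gate (circles) and over low-macrophage cells (diamonds); genes under 20 UMIs are left out. Pdcd1 and Tox lie under 0 in CD8 T cells in both, and in NK cells Ctla4 lies above 0 and Cd160, Tox and Lag3 under it.

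In the other T gate, Ctla4 was higher and Lag3 and Havcr2 were lower in the PTIR1 library. Ctla4 had 405 UMIs in PTIR1 and 334 in mock cells, 137 and 103 CPM in PTIR1 and mock cells, a ratio of 1.33 (1.15 to 1.54). In the other T gate the 3 neutrophil markers S100a8, S100a9 and Il1r2 summed to 3949 CPM in PTIR1 and 1846 CPM in mock cells. Lag3 stood at 21.2 CPM in PTIR1 and 32.6 CPM in mock cells, a ratio of 0.652 (0.469 to 0.899), the 1 member past 1.5-fold lower, against 6.45% of 10474 genes, and no member was past 1.5-fold higher, against 8.44%. Havcr2 had a ratio of 0.747 (0.570 to 0.975). In low-macrophage cells the Ctla4 ratio was 1.08 (0.891 to 1.31), that of Lag3 0.713 (0.454 to 1.11) and that of Havcr2 0.713 (0.335 to 1.47), and all 3 intervals included 1, while Tox was lower, at 36.2 CPM in PTIR1 and 60.1 CPM in mock cells, a ratio of 0.603 (0.398 to 0.900). Tox was then the 1 measured member past 1.5-fold lower, against 9.91% of 8599 genes, and none was higher, against 11.4%. The low-macrophage ratio of Lag3 rested on 36 UMIs in PTIR1 and 54 in mock cells, and that of Havcr2 on 14 and 21. In cells over the macrophage limit the Ctla4 ratio was 1.77 (1.40 to 2.26), above the interval of low-macrophage cells. Lag3 stood there at 0.578 (0.349 to 0.937) and Havcr2 at 0.760 (0.567 to 1.02), both within their low-macrophage intervals. Foxp3+ cells were 25 of 91 PTIR1 and 21 of 186 mock cells over the limit. They were 21 of 100 PTIR1 and 34 of 128 mock low-macrophage cells. The part of this makeup in the Ctla4 ratios of the gate was not tested. With the 5 depth ranges held equal, Ctla4 in the whole gate was 1.51-fold higher in the PTIR1 library.

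The Ctla4 ratio lay on opposite sides of 1 in the 2 main parts of this gate. In Foxp3+ cells it had 277 UMIs in PTIR1 and 262 in mock cells, a ratio of 0.785 (0.660 to 0.933). In low-macrophage Foxp3+ cells, 21 PTIR1 and 34 mock cells, it stood at 675 CPM in PTIR1 and 648 CPM in mock cells, a ratio of 1.04 (0.824 to 1.31). In cells with neither Foxp3 nor Trdc, it had 123 UMIs in 132 PTIR1 cells and 72 UMIs in 248 mock cells, a ratio of 2.17 (1.61 to 2.95), and 2.09 (1.43 to 3.11) in low-macrophage cells. Outside Foxp3+ cells the interval excluded 1 both with and without the macrophage limit, and inside them only without it. The neutrophil markers summed to 5542 CPM in PTIR1 and 2390 CPM in mock cells of the part with neither Foxp3 nor Trdc, and to 1001 and 551 CPM in its PTIR1 and mock low-macrophage cells, and their part in the Ctla4 ratio was not tested. Pdcd1 and Lag3 in Foxp3+ cells had ratios of 0.525 (0.315 to 0.866) and 0.408 (0.247 to 0.659), and of 0.892 (0.465 to 1.67) and 0.991 (0.475 to 2.02) in low-macrophage cells.

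In NK cells, gated without CD3 UMIs above 1, Ctla4 was higher in the PTIR1 library and Cd160, Tox and Lag3 were lower. Ctla4 had 451 UMIs in 702 PTIR1 cells and 195 UMIs in 572 mock cells, a ratio of 1.58 (1.33 to 1.88). Cd160 had 397 UMIs in PTIR1 and 405 in mock cells, a ratio of 0.669 (0.581 to 0.770). Tox, which also acts in the development of NK cells, stood at 10.8 CPM in PTIR1 and 19.6 CPM in mock cells, a ratio of 0.549 (0.432 to 0.697). Lag3 had a ratio of 0.716 (0.593 to 0.865). Fibroblast markers (Dcn, Lum, Col3a1 and Pdgfra summed) stood at 117 CPM in PTIR1 and 7.26 CPM in mock NK cells and at 152 and 10.4 CPM in PTIR1 and mock low-macrophage NK cells, and the 3 neutrophil markers at 417 and 174 CPM in PTIR1 and mock NK cells. Their part in these ratios was not tested. Past 1.5-fold there was 1 member higher, Ctla4, against 5.78% of 12080 genes, and 1 member lower, Tox, against 4.45%.

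In low-macrophage NK cells these 4 differences kept their direction, with ratios of 1.56 (1.29 to 1.91) for Ctla4, 0.569 (0.480 to 0.675) for Cd160, 0.554 (0.417 to 0.733) for Tox and 0.759 (0.613 to 0.939) for Lag3. Past 1.5-fold there were then Cd160 and Tox lower, against 4.48% of 11251 genes, and Ctla4 higher, against 7.96%. In NK cells over the macrophage limit the Cd160 ratio was 1.07 (0.814 to 1.40), on 155 UMIs in PTIR1 and 86 in mock cells, while Ctla4 had a ratio of 1.86 (1.3 to 2.7), Tox of 0.607 (0.376 to 0.982) and Lag3 of 0.712 (0.469 to 1.09). At full depth, a Ctla4 UMI was found in 25.9% of PTIR1 and 17.8% of mock NK cells, against 1.39% and 1.11% of PTIR1 and mock B cells. Median depths were 12652.5 and 9904 UMIs in PTIR1 and mock NK cells, and 4575.5 and 4308 UMIs in PTIR1 and mock B cells. NK cells with a Ctla4 UMI at an equal depth of 5000 UMIs are counted below, with Cd160. The NK cell with the most Ctla4 UMIs held 3.99% of them in the PTIR1 and 5.13% in the mock library. Havcr2 was 1.31-fold higher in the PTIR1 library (1.07 to 1.60), with an interval that included 1 in low-macrophage cells, 1.19 (0.829 to 1.73). Among cells of at most 20000 UMIs its log2 ratio was -0.27 (-0.85 to 0.30). With every cell thinned to 5000 UMIs it was 0.0956 (-0.49 to 0.69). Entpd1 had a ratio of 1.14 (0.988 to 1.31).

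Itga1, an integrin chain of tissue-resident and innate lymphoid type 1 cells, split the NK gate, with 236 PTIR1 and 217 mock cells positive. A single Itga1 UMI made a cell positive. Median depth was 20755.5 UMIs in PTIR1 and 16482 in mock Itga1+ cells, and 9589.5 and 7001 UMIs in PTIR1 and mock Itga1- cells. Over the macrophage limit were 41.9% of PTIR1 and 29.5% of mock Itga1+ cells, and 26.4% and 28.2% of PTIR1 and mock Itga1- cells. Ctla4 was higher in both parts, by 1.66-fold (1.35 to 2.06) in Itga1+ and 1.51-fold (1.12 to 2.04) in Itga1- cells, and in low-macrophage cells by 1.99-fold (1.57 to 2.55) and 1.4-fold (0.990 to 2.01). Cd160 was lower in both, with ratios of 0.678 in Itga1+ and 0.676 in Itga1- cells, and so was Tox, with 0.492 and 0.589. Lag3 was lower in Itga1+ cells, at 22.0 CPM in PTIR1 and 37.1 CPM in mock cells, a ratio of 0.593 (0.466 to 0.755). In Itga1- cells Lag3 stood at 17.1 CPM in PTIR1 and 16.8 CPM in mock cells, a ratio of 1.02 (0.744 to 1.41). Havcr2 had a ratio of 1.57 (1.23 to 2.02) in Itga1+ and 0.953 (0.675 to 1.35) in Itga1- cells, and in low-macrophage cells of 1.37 (0.917 to 2.06) and 2.0 (0.775 to 6.09). Entpd1 had a ratio of 1.33 (1.11 to 1.61) in Itga1+ and 0.920 (0.737 to 1.15) in Itga1- cells. In low-macrophage cells the Entpd1 ratio was 1.39 (1.04 to 1.87) in Itga1+ and 0.644 (0.457 to 0.910) in Itga1- cells. With 1 library a group, no difference between these parts was tested.

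Among non-lymphoid cells, Havcr2, Entpd1 and Lag3 were lower in the PTIR1 library, and the makeup of this gate differed between the libraries. Havcr2 had 109 UMIs in PTIR1 and 183 in mock cells, a ratio of 0.410 (0.320 to 0.522), Entpd1 a ratio of 0.550 (0.477 to 0.635) and Lag3 a ratio of 0.625 (0.484 to 0.807), where 15.6% of 13015 genes were past 1.5-fold lower. Ctla4, the 1 other member with at least 20 UMIs there, had 25 UMIs in PTIR1 and 11 in mock cells, a ratio of 1.56 (0.742 to 3.52), where 16.3% of genes were past 1.5-fold higher. The gate held 244 PTIR1 and 13 mock fibroblasts, and 66 PTIR1 and 249 mock mast cells or basophils. Havcr2 had a ratio of 0.744 (0.534 to 1.03) in the macrophage or monocyte part and 1.01 (0.944 to 1.09) in the wide myeloid gate. Entpd1 had a ratio of 0.681 (0.535 to 0.868) in neutrophils and 0.870 (0.818 to 0.926) in the wide myeloid gate. Lag3 in plasmacytoid dendritic cells had 100 UMIs in PTIR1 and 89 in mock cells, a ratio of 0.841 (0.625 to 1.13), and in the wide myeloid gate 21 UMIs in PTIR1 and 58 in mock cells, a ratio of 0.479 (0.276 to 0.802). In fibroblasts and CT26 tumour cells Havcr2 stayed under 20 UMIs, with 3 and 2 UMIs in PTIR1 and mock fibroblasts and 2 and 7 UMIs in PTIR1 and mock tumour cells. The part of the makeup in the ratios of the whole gate was not tested. Tox in B cells had 39 UMIs in 864 PTIR1 cells and 6 UMIs in 449 mock cells, 6.61 and 2.29 CPM in PTIR1 and mock cells, a ratio of 2.89 (1.21 to 8.34), the opposite direction to that in CD8 T and NK cells.

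Co-expression was counted as the number of the 8 genes with a UMI in a cell. At full depth CD8 T cells carried a mean of 3.9 of the 8 in the PTIR1 and 4.25 in the mock library. At least 2 genes were found in 77.0% (64.5 to 86.8%) of PTIR1 and 87.9% (83.1 to 91.8%) of mock CD8 T cells, against 13 of 864 PTIR1 and 10 of 449 mock B cells. With each cell thinned to 1000 UMIs the share was 11.9% (4.91 to 22.9%) of 59 PTIR1 and 21.5% (16.5 to 27.3%) of 237 mock cells. With each cell thinned to 5000 UMIs, a depth added after seeing the data, it was 56.9% (42.2 to 70.7%) of 51 PTIR1 and 74.1% (67.6 to 80.0%) of 205 mock cells. The share was lower in the PTIR1 library at each depth, and the 2 binomial intervals overlapped at each depth. Such overlap is not an interval of the difference, and does not by itself place the difference within counting error.

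Cells with 4 or more of the genes at 5000 UMIs made up 19.6% (9.82 to 33.1%) of PTIR1 and 27.8% (21.8 to 34.5%) of mock CD8 T cells, 2.78% and 4.88% of PTIR1 and mock Foxp3+ cells, and 0 of 587 PTIR1 and 1 of 435 mock NK cells. In low-macrophage CD8 T cells at this depth, at least 2 genes were found in 72.2% (46.5 to 90.3%) of 18 PTIR1 and 86.4% (78.5 to 92.2%) of 110 mock cells. Foxp3+ cells followed CD8 T cells, with at least 2 genes in 50% of 36 PTIR1 and 58.5% of 41 mock cells. NK cells had 15.8% of 587 PTIR1 and 19.1% of 435 mock cells with at least 2, and B cells 1.46% of 342 PTIR1 and 2.21% of 136 mock cells.

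**Figure D4:**
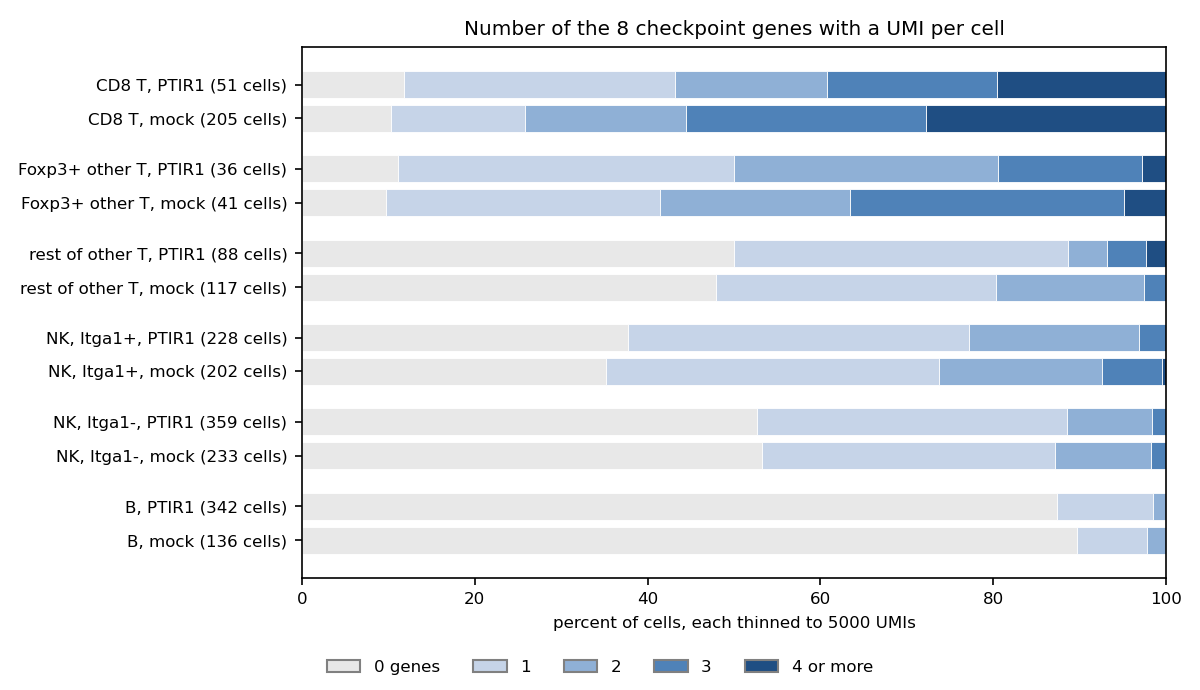
Percent of cells with UMIs of 0, 1, 2, 3 or at least 4 of the 8 genes in 6 gates, each cell thinned to 5000 UMIs, with the PTIR1 library above the mock library in each pair. CD8 T cells carry the most genes per cell, with 19.6% of PTIR1 and 27.8% of mock cells at 4 or more, and B cells the fewest.

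Within CD8 T cells thinned to 5000 UMIs, Tox was the gene found most often beside Pdcd1. The pairs were counted over all cells of the gate, those over the macrophage limit included, and the part of macrophage RNA in them was not tested. A Tox UMI was found in 14 of 20 PTIR1 cells with a Pdcd1 UMI, 70% (45.7 to 88.1%), and in 4 of 31 without, 12.9% (3.63 to 29.8%). In mock cells the shares were 64.3% (54.9 to 73.1%) of 115 with and 45.6% (35.0 to 56.4%) of 90 without. Lag3 was found in 8 of 20 PTIR1 cells with Pdcd1 and 7 of 31 without, and in 57.4% (47.8 to 66.6%) of mock cells with and 30% (20.8 to 40.6%) without. Ctla4 was found in 10 of 20 PTIR1 cells with Pdcd1 and 4 of 31 without, and in 34.8% (26.1 to 44.2%) of mock cells with and 26.7% (17.9 to 37.0%) without. Havcr2 and Entpd1, the pair with most UMIs in myeloid cells, were found beside Pdcd1 and without it at shares whose intervals overlapped. Each was found in 8 of 20 PTIR1 cells with and 10 of 31 without a Pdcd1 UMI. In mock cells, Havcr2 was found in 25.2% with and 26.7% without a Pdcd1 UMI, and Entpd1 in 30.4% with and 27.8% without. Before thinning, PTIR1 cells with a Pdcd1 UMI at this depth had a median of 14666 UMIs and those without 27004 UMIs, and mock cells with one had 15949 UMIs and those without 22108.5 UMIs.

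**Figure D5:**
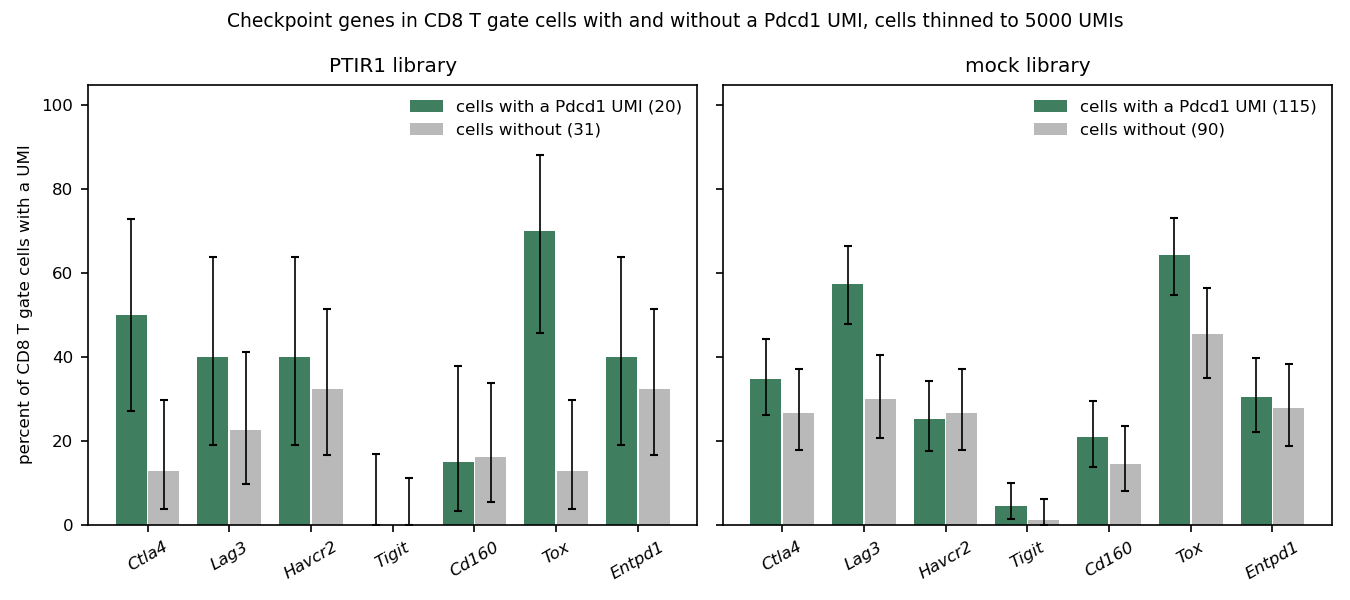
Percent of CD8 T gate cells with a UMI of each other gene, among cells with a Pdcd1 UMI (green) and without (grey), in the PTIR1 library (left) and the mock library (right), each cell thinned to 5000 UMIs, with exact 95% binomial intervals. Tox is at 70% beside Pdcd1 and 12.9% without it in PTIR1 cells, and at 64.3% and 45.6% in mock cells.

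In NK cells the pair of Ctla4 and Cd160 was counted. Thinned to 5000 UMIs, a Cd160 UMI was found in 18 of 84 PTIR1 NK cells with a Ctla4 UMI, 21.4% (13.2 to 31.7%), and in 14.7% (11.7 to 18.1%) of 503 without. In mock NK cells it was found in 12 of 49 with a Ctla4 UMI, 24.5% (13.3 to 38.9%), and in 19.4% (15.6 to 23.7%) of 386 without. The intervals overlapped in both libraries.

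Other genes of the pathway were counted in lists, and each count stands beside the share of all genes in the same gate. Of 11 other inhibitory receptors, 10 were measured in CD8 T cells, 1 past 1.5-fold higher and 3 past 1.5-fold lower in the PTIR1 library, against 7.08% and 13.8% of all genes. Klrc1, which encodes the inhibitory receptor NKG2A, had 168 UMIs in PTIR1 and 951 in mock cells, a ratio of 0.589 (0.497 to 0.694), and Cd101 had 2 and 42 UMIs in PTIR1 and mock cells, a ratio of 0.159 (0.0186 to 0.610). Btla, an inhibitory receptor for HVEM, had 12 UMIs in PTIR1 and 14 in mock cells, a ratio of 2.86 (1.21 to 6.65), and Cd200r1 a ratio of 1.35 (1.01 to 1.77). In low-macrophage CD8 T cells 8 were measured and none was past 1.5-fold, against 12% of all genes higher and 21.6% lower, with Klrc1 at 0.679 (0.512 to 0.886). In NK cells 10 were measured, 1 of them past 1.5-fold lower, Cd200, with 12 UMIs in PTIR1 and 24 in mock cells, against 4.45% of all genes lower and 5.78% higher.

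Costimulatory receptors drive activation. All 9 were measured in CD8 T cells and none was past 1.5-fold, against 7.08% of all genes higher and 13.8% lower. Tnfrsf4 (OX40) had a ratio of 1.46 (1.17 to 1.82) and Icos of 0.699 (0.530 to 0.911). In low-macrophage CD8 T cells 8 were measured and Tnfrsf4 was past 1.5-fold higher, with a ratio of 2.10 (1.46 to 2.95), against 12% of all genes. All 9 were measured in NK cells and none was past 1.5-fold, against 5.78% of all genes higher and 4.45% lower. Cd226, the activating competitor of TIGIT, stood at 38.6 CPM in PTIR1 and 54.3 CPM in mock NK cells, a ratio of 0.711 (0.623 to 0.813). In the other T gate 1 of 9 was past 1.5-fold lower, against 6.45% of all genes. The 9 genes of signalling below the receptors, such as Ptpn6, which encodes the phosphatase SHP-1, were all measured. None was past 1.5-fold in the CD8 T, other T or NK gates. Of all genes, 7.08% were higher and 13.8% lower in CD8 T cells, and 8.44% and 6.45% in other T cells. In NK cells these shares of all genes were 5.78% and 4.45%, so none of 9 does not set these genes apart. In low-macrophage CD8 T cells 1 signalling gene was past 1.5-fold higher and 1 lower, against 12% of all genes higher and 21.6% lower. These were Sh2d1a at 2.30 (1.70 to 3.09) and Ptpn11 at 0.553 (0.231 to 1.14). In low-macrophage other T cells 2 signalling genes were lower, against 9.91% of all genes.

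Among 18 regulators of dysfunction and memory, 17 were measured in each lymphoid gate. In CD8 T cells 4 were past 1.5-fold higher and 3 lower, against 7.08% of all genes higher and 13.8% lower. In other T cells 7 were higher and 2 lower, against 8.44% and 6.45%, and in NK cells 1 was higher and 1 lower, against 5.78% and 4.45%. In low-macrophage cells 4 of 15 were higher and 1 lower in CD8 T cells, against 12% and 21.6% of all genes, 1 of 17 higher and 5 lower in other T cells, against 11.4% and 9.91%, and 4 of 17 higher and none lower in NK cells, against 7.96% and 4.48%. Nr4a1, an immediate early gene, was higher in the PTIR1 library in each gate, and the cause was not tested. It stood at 114 CPM in PTIR1 and 60.8 CPM in mock CD8 T cells, a ratio of 1.88 (1.54 to 2.29), at 178 and 76.0 CPM in PTIR1 and mock other T cells, a ratio of 2.34 (2.01 to 2.73), and at 141 and 70.9 CPM in PTIR1 and mock NK cells, a ratio of 1.99 (1.81 to 2.20). In low-macrophage cells its ratio was 2.01 in NK and 1.82 in other T cells, and in CD8 T cells, on 14 UMIs in PTIR1 and 56 in mock cells, its interval ran from 0.773 to 2.74. Tcf7, the factor of memory and stem-like T cells, was lower in other T cells, with a ratio of 0.530 (0.396 to 0.705), and in NK cells, with 0.647 (0.558 to 0.751). In low-macrophage NK cells Tcf7 was not past 1.5-fold lower. Nfatc1, which encodes an NFAT factor, was lower in CD8 T cells, with a ratio of 0.641 (0.489 to 0.829).

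Of 10 ligands, all measured in the non-lymphoid gate, 1 was past 1.5-fold higher and 4 were past 1.5-fold lower, against 16.3% and 15.6% of all genes. Cd274, which encodes the PD-1 ligand PD-L1, stood at 26.8 CPM in PTIR1 and 51.1 CPM in mock cells of that gate, and at 125 CPM in PTIR1 and 144 CPM in mock cells of the wide myeloid gate, a ratio of 0.864 (0.826 to 0.904). Cd80, a ligand of CTLA-4 and CD28, was higher in the wide myeloid gate, at 48.0 CPM in PTIR1 and 28.1 CPM in mock cells, a ratio of 1.71 (1.57 to 1.86), the 1 of 10 ligands past 1.5-fold higher there, against 9.32% of all genes, and none was lower, against 4.34%.

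Across 27 points, each a gate of a library with at least 20 cells, the genes were also compared by their profile, as Pearson's r of log2 of CPM plus 10 among 13202 genes. The points share libraries and some gates share genes with the definitions, so r is a description. Closest to Pdcd1 were Cd3e, which defined the T gates, and Trac, both with r = 0.93. Closest to Ctla4 were Icos and Gstp3 (0.97 for both), to Tigit Dkkl1 and Ctla4 (0.93 for both), to Cd160 Klrc2 (0.96) and Gm20069 (0.95), and to Tox Chst2 (0.96) and Xlr4a (0.94). Closest to Havcr2 were Hal and Maf (0.90 for both), to Entpd1 Ccr1 and Slc16a3 (0.96 for both) and to Lag3 Fdxr and Ociad2 (0.84 for both). Among the 8 themselves, r was highest for Ctla4 with Tigit (0.93) and Pdcd1 with Tox (0.91), and lowest for Cd160 with Entpd1 (0.15).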

How the data were processed

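The authors deposited raw UMI counts, 1 matrix a library, which Cell Ranger 5.0.0 wrote per the file headers. Seurat 3.2.3 and mm10 stand in the submitters' processing notes with no role given, and the kit was version 3.1 per the labels' protocols. Which annotation and intron setting were used in counting is not given in the sources used here. No barcode had fewer than 500 UMIs.

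Barcodes with under 200 genes or over 10% mitochondrial UMIs were dropped, 1439 in the PTIR1 and 1505 in the mock library. Gates also required fewer than 2 UMIs of the other lymphoid lineages' genes, B cells at least 2 UMIs of B cell markers that include Cd79a and Ms4a1 (the whole list is not reported here), and T, NK and B cells at most 0.2% of UMIs from C1qa, C1qb, C1qc, Csf1r and Adgre1. Non-lymphoid gates used markers of 7 cell types. Cells in no gate numbered 4650 in the PTIR1 and 6836 in the mock library, and cells with both CD3 and NK UMIs were set apart. Of the 30 barcodes found in both libraries, 5 PTIR1 and 3 mock cells lay in T or NK gates. Doublets were kept, since Scrublet's automatic threshold called 0 PTIR1 cells and 1 mock cell, and removing the highest scores at 0.8% per 1000 cells was an alternative.

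UMIs were summed per gate and library and divided by the gate's total (CPM). Levels have exact Poisson intervals, shares exact binomial (Clopper-Pearson) intervals and ratios exact conditional binomial intervals, at 95%. A gene counts as measured in a gate from a sum of 20 UMIs in the 2 libraries, and list medians had 0.5 added to each UMI sum. A count of 0 allows 3 UMIs. Thinning drew UMIs without replacement. All 8 members are named. Of each other list, the 2 genes per direction whose interval end nearest 1 lay farthest from it could be named. Not all of these are given in the text. The members and lists were chosen with earlier results of these data known. The limit on macrophage RNA, the wide myeloid gate, 5000 UMIs, the depth ranges and the T cell marker scale were chosen after seeing the data. The ratio intervals were checked on simulated Poisson sums of a gate. These sums hold no spread between cells, so the check does not cover such spread. Software was scanpy 1.11.5, matplotlib 3.10.9, pandas 2.3.3, scipy 1.17.1 and numpy 2.4.6 under Python 3.11.15.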

Additional observations from a re-analysis of the deposited data

Results flagged for a closer look

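In 4 genes the 2 libraries differed in opposite directions in different gates, with both counting intervals away from 1. With 1 library a group, none of these differences between gates was tested, and 1 pair of gates is given for each gene. The pair was picked from many gates, by the interval end nearest 1 that lay farthest from it in each direction. The share of all genes that meet the same rule was not counted, so the count does not set these genes apart.

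Ctla4 was 2.17-fold higher in PTIR1 than in mock cells of the other T gate without Foxp3 and Trdc, and had a ratio of 0.785 in Foxp3+ cells, which was 1.04 in low-macrophage Foxp3+ cells. Tox was 2.89-fold higher in PTIR1 than in mock B cells and had a ratio of 0.590 in CD8 T cells. Havcr2 was 1.57-fold higher in PTIR1 than in mock Itga1+ NK cells, where the low-macrophage ratio was 1.37 (0.917 to 2.06), and had a ratio of 0.410 in the non-lymphoid gate. Entpd1 was 1.33-fold higher in PTIR1 than in mock Itga1+ NK cells and had a ratio of 0.550 in the non-lymphoid gate. The makeup of the non-lymphoid gate differed between the libraries, and its part in the last 2 results was not tested.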

How the results depend on the processing

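The Pdcd1 log2 ratio in CD8 T cells was -0.86 and stayed under 0 in all 19 alternatives, between -1.18 and -0.28. It was -1.16 at 1000 UMIs, -1.18 at 2000 UMIs, -0.28 at 5000 UMIs, -0.43 in cells of at most 20000 UMIs and -0.48 in cells over the macrophage limit, and the cause was not tested. The medians of the 8 genes in the CD8 T, other T and NK gates stayed between the medians of their members' interval ends in every alternative run, and took both signs, from -0.27 to 0.22, from -0.47 to 0.19 and from -0.61 to 0.18 in that order. The share of CD8 T cells with at least 2 genes stayed lower in the PTIR1 library in all 15 alternatives, by 1.43 to 17.3 percentage points. Tox in CD8 T cells (-1.43 to -0.43) and, in NK cells, Ctla4 (0.61 to 1.21) and Tox (-1.10 to -0.55) kept their direction in every alternative run. Cd160 in NK cells changed direction in cells over the macrophage limit (0.092), on an interval that included 0.

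Over 27 other single-gene log2 ratios and 481 recomputations, 414 lay within the reported interval, 59 lay outside it and 8 changed the direction of a ratio whose interval excluded 0. Lag3 changed direction in CD8 T cells at 1000 UMIs (0.30) and 2000 UMIs (0.33), in other T cells at 2000 UMIs (0.31), at 5000 UMIs (0.0814) and with each cell weighing the same (0.0923), and in non-lymphoid cells at 1000 UMIs (0.17). Havcr2 changed direction in NK cells of at most 20000 UMIs (-0.27). A fold of 2 in place of 1.5 left 5.87% of all genes lower in CD8 T cells.

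Depth limits Tigit most, whose CD8 T interval ran from 0.215 to 1.95, and with 1 library a group the spread between animals is unknown. No paired analysis was possible because each group had 1 library.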

Other observations

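Cells with both CD3 and NK UMIs, 158 in the PTIR1 and 103 in the mock library, were in no comparison above. They held 17.3% of the Pdcd1 UMIs of kept cells in the PTIR1 and 3.48% in the mock library, and 19.3% and 14.3% of the Cd160 UMIs in the PTIR1 and mock libraries. Pdcd1 stood there at 18.7 CPM in PTIR1 and 18.5 CPM in mock cells, a ratio of 1.01 (0.683 to 1.52), against 0.549 in the CD8 T gate, and the difference between gates was not tested. Ctla4 had a ratio of 1.55 (1.2 to 2.02), and of 0.969 (0.686 to 1.38) in low-macrophage cells. Havcr2 had a ratio of 0.604 (0.439 to 0.831), and of 2.47 (1.05 to 6.69) in low-macrophage cells, where it rested on 28 UMIs in PTIR1 and 7 in mock cells. Cd160 had a ratio of 0.591 (0.462 to 0.757), and of 0.566 (0.421 to 0.762) in low-macrophage cells.

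The Trdc+ cells of the other T gate, which carry the gamma delta T cell receptor constant region, numbered 13 in the PTIR1 and 11 in the mock library. They had 14 Cd160 UMIs in PTIR1 and 3 in mock cells, with 64.3% of the PTIR1 UMIs in 1 cell, and 5 Pdcd1 UMIs in PTIR1 and 0 in mock cells.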
